A study of Mus musculus with 30 samples.

Results

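Hearts of floxed control mice were compared 8 weeks after transverse aortic constriction (TAC) or sham surgery. In TAC a clip narrows the arch of the aorta, so that the left ventricle pumps against a raised pressure. The 8 hearts were all those labelled as floxed controls in a series of 30 mouse hearts, 4 after TAC (TAC 1 to 4) and 4 after sham (sham 1 to 4). Both groups carry the genotype label Cpt1a floxed, in which recombinase sites flank part of Cpt1a. The labels name no Cre for these mice, and strain background, age and sex are not given in the sources used here. The TAC clip measured 0.016 or 0.018 inch, and the labels do not say which mouse received which. The series also holds cardiac Cpt1a knockout hearts, 4 after sham and 4 after TAC, which entered the model only to estimate the spread. It further holds C57Bl/6 hearts from mice injected with PBS (saline), 3 after sham and 3 after TAC, which are set beside the floxed hearts at the end. The remaining hearts carry the treatment label AAV9.Cpt1a (a vector) with sham surgery or TAC. They entered only the fits over the whole series, which gave the values for PBS hearts. The study was designed, per its description, around the role of Cpt1a in the stressed heart, and the floxed hearts are the control arm of the knockout experiment. Each heart is 1 library of poly(A) RNA, sequenced and counted per gene.

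Pressure overload enlarges cardiomyocytes, the contractile cells of the heart. The adult mouse ventricle relies on the fast alpha myosin heavy chain (Myh6) and on cardiac alpha-actin (Actc1), and under load it turns on isoforms typical of the fetal heart, among them beta myosin heavy chain (Myh7) and skeletal alpha-actin (Acta1), together with natriuretic peptides. Fibroblasts deposit matrix, and energy supply is known to shift away from fatty acids. Immediate early genes such as Fos and Egr1, and targets of the transcription factor NF-kB such as Cxcl1 and Nfkbia, respond within minutes to hours to acute stimuli of many kinds.

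The deposited counts summed to 16849335 to 18473879 per library. Markers of the labelled tissue were present: 11 cardiomyocyte genes together held 71213 to 88430 CPM (counts scaled to a common library total) in sham and 80429 to 94097 CPM in TAC hearts. CPM below are also scaled by TMM, a factor that evens out library composition, except for summed haemoglobin. Cpt1a (ENSMUSG00000024900), the targeted gene, whose enzyme commits long-chain fatty acids to mitochondrial oxidation, was at 37.8, 43.9, 52.7 and 45.9 CPM in sham 1 to 4 and at 48.9, 20.3, 16.2 and 34.0 CPM in TAC 1 to 4. TAC 1 lay inside the sham range and the other TAC hearts below it, although none of these mice is labelled a knockout.

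The 4 TAC libraries were not alike. Haemoglobin transcripts, which come from red blood cells, summed to 565, 572, 529 and 384 CPM in sham 1 to 4 and to 502, 3.41, 1.74 and 534 CPM in TAC 1 to 4, so that TAC 2 and TAC 3 held almost none. Among the 8 knockout hearts that share the estimate of spread, 5 were also under 100 CPM. On the first principal component of the 8 libraries, which took 54.4% of the variance, TAC 2 and TAC 3 lay at 70.6 and 69.4, TAC 4 at −3.02 and the other 5 libraries between −43.6 and −15.7. Of 10608 genes above 5 CPM, 447 and 469 were at least 2-fold above the sham mean (of log2 CPM) in TAC 2 and TAC 3, against 54 in TAC 4, 27 in TAC 1 and 15 to 148 in each sham library set against the other 3. Sham 2 held atrial transcripts that the others had little of: the atrial myosin light chain Myl7 was at 1106 CPM there, at 36.8 CPM in sham 3, at 74.3 CPM in TAC 1 and from 0 to 0.181 CPM in the other 5 libraries. How the hearts were dissected or perfused, and on which dates, is not given in the sources used here. For the lists and most of the genes below, values without these hearts are given too. The edgeR p-values measure only the spread between hearts within the groups fitted. For TAC against sham these are the 16 libraries of the floxed cohort, knockout hearts included. For values that use the PBS hearts they are the whole series.

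With all 8 hearts, no gene passed an adjusted p of 0.05 in the quasi-likelihood test of edgeR, adjusted by Benjamini-Hochberg over all genes (0 of 15596 tested, 0%). The smallest adjusted p was 0.317. At an unadjusted p under 0.05 there were 1733 genes, 1040 higher (6.67%) and 693 lower (4.44%) in TAC. On the same libraries DESeq2 called 175 genes and limma voom with sample weights called 0, while the edgeR fit called 27 when all 30 libraries were fitted together and 27 when TAC 1 was left out. Without TAC 2 and TAC 3 the test called 0, and 191 genes (1.17%) were higher and 147 (0.9%) lower at an unadjusted p under 0.05. These shares over all genes, with and without TAC 2 and TAC 3, are the background for the list counts below. With only the 8 floxed control libraries fitted, edgeR called 0. Then 2065 genes had an unadjusted p under 0.05, and the smallest adjusted p was 0.129. In 427 genes (2.74%) every TAC library lay above every sham library, and in 514 (3.3%) every TAC library lay below. The genes named below are therefore a ranking with values, and none of them is called. Exons of Xirp2, Sorl1, Lrrc3b, Zkscan7, Nppa, Mybpc2, Bdh1, Crat, Cacna1h, Kcnq1, Selp, Slc2a1, Manf, Myh6, Myh7, Nmrk2, Ace, Corin, Ccn2, Tgfb2, Ltbp2, Thbs1, Fabp3, Pfkfb1, Atp2a2, Pln, Il1b, Icam1, Hspa1a, Bhlhe41 and Ttn overlap exons of a gene on the opposite strand, and those of Nav2, Col3a1, Ankrd23 and Cpt1b overlap a gene on their own strand. The strand setting of the counting is not given in the sources used here, so counts of these genes are uncertain to that extent. Coordinates are those of GENCODE release M21 on GRCm38, which may not be the release the authors counted with.

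**Figure D1:**
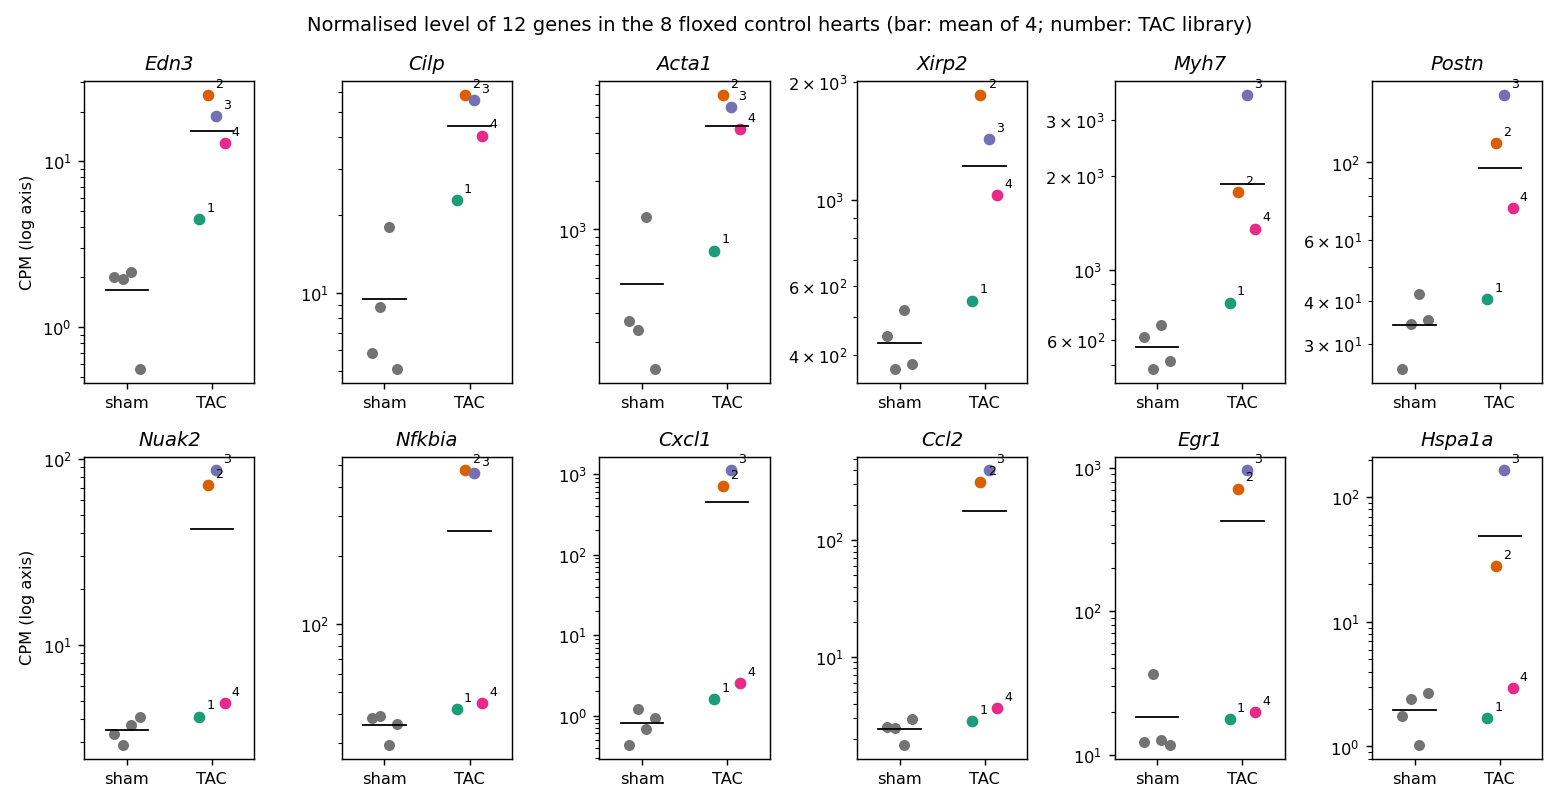
Level in CPM (log axis) of 12 genes in the 4 sham hearts (grey) and the 4 TAC hearts (coloured, numbered by library), with the mean of each group as a bar. Edn3, Cilp, Acta1, Xirp2, Myh7 and Postn are graded, with TAC 4 between TAC 1 and the pair TAC 2 and TAC 3. Nuak2, Nfkbia, Ccl2, Egr1 and Hspa1a are high in TAC 2 and TAC 3 and close to sham in TAC 1 and TAC 4. Cxcl1 is far higher in TAC 2 and TAC 3, and at 1.59 and 2.54 CPM in TAC 1 and TAC 4 it is above every sham heart.

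Genes of the sarcomere and of stretch sensing were higher in TAC hearts in a graded order. Of 21 tested genes known for hypertrophy and stretch, 11 were higher and 0 lower at an unadjusted p under 0.05, where 6.67% and 4.44% of all genes were. The median log2 fold change was 0.59 against −0.01 over all genes tested. Relative to the sham mean, the median of the list was 0.12 in TAC 1, 1.14 in TAC 2, 1.0 in TAC 3 and 0.51 in TAC 4 on the log2 scale. Without TAC 2 and TAC 3, 4 members (Acta1, Ankrd2, Xirp2 and Flnc) had an unadjusted p under 0.05, all higher, and the median was 0.34.

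The first of these by size was Acta1 (ENSMUSG00000031972, chromosome 8, 123891769 to 123894751, minus strand, GRCm38), skeletal alpha-actin. It was at 269, 237, 1189.5 and 134 CPM in sham 1 to 4 and at 738, 6913, 5789 and 4213 CPM in TAC 1 to 4. Only TAC 1 fell within the range of the sham hearts, because sham 3 stood above it, and TAC 2, TAC 3 and TAC 4 were all above every sham heart. The log2 fold change was 3.27 (SE 0.75, unadjusted p 0.00055, adjusted p 0.328 in edgeR's quasi-likelihood test) and 2.45 without TAC 2 and TAC 3. The 250 bases before its start are shown because they hold both motifs of muscle promoters searched for here, in capitals, with the CArG box (the binding sequence of serum response factor) before the MCAT box (CATTCC, bound by TEAD factors). The sequence is from RefSeq on GRCm38.p6, chr8:123894776-123895025, minus strand, read 5′ to 3′.
Acta1: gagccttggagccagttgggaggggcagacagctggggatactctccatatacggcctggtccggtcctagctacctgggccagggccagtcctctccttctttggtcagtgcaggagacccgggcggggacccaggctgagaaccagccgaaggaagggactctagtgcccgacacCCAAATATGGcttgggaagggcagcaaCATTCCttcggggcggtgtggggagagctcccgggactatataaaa
The CArG box reads as a match on both strands, the MCAT box on the strand printed, and they do not overlap. Over 20 hypertrophy and stretch genes with a RefSeq promoter, 8 (40%) held CATTCC on either strand in this window, namely Acta1, Ankrd1, Ankrd23, Flnc, Mybpc2, Myh6, Myh7 and Nppb, against 14.4% of 27025 genes. A CArG box was found in 5 (25%), namely Acta1, Actc1, Fhl1, Fhl2 and Lmcd1, against 1.62% of all genes. These are matches of letters, not measured sites.

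Myh7 (ENSMUSG00000053093, chromosome 14, 54970684 to 54994626, minus strand), the slow beta myosin heavy chain, was at 611, 482, 668 and 514 CPM in sham hearts and at 787, 1772, 3615 and 1355 CPM in TAC hearts. Every TAC heart was above every sham heart, TAC 1 by the least. The log2 fold change was 1.73 (SE 0.45, unadjusted p 0.00156) and 0.92 without TAC 2 and TAC 3. Myh6, the fast alpha form, was at 27626 ± 1289.8 CPM in sham and 24821 ± 2283 CPM in TAC hearts (SD, n = 4 each), with overlapping groups and a log2 fold change of −0.15 (SE 0.17).

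Within each heart the isoform balance can be read without scaling between libraries. The Myh7 share of Myh6 and Myh7 counts was 2.26%, 1.73%, 2.40% and 1.71% in sham 1 to 4 and 2.77%, 7.15%, 13.6% and 5.01% in TAC 1 to 4. The groups did not overlap, with TAC 1 just above the highest sham heart (two-sided exact permutation test p 0.0286, the smallest that 4 against 4 allows, and 0.143 after adjustment over 5 shares). The Acta1 share of Acta1 and Actc1 counts was 2.52%, 3.02%, 10.9% and 1.48% in sham 1 to 4 and 7.20%, 38.6%, 34.9% and 29.8% in TAC 1 to 4. Here TAC 1 lay below sham 3 (exact permutation p 0.0571, adjusted 0.143). In TAC 2, TAC 3 and TAC 4 skeletal actin took at least 29.8% of the 2 actins' counts, and in sham hearts at most 10.9%.

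**Figure D2:**
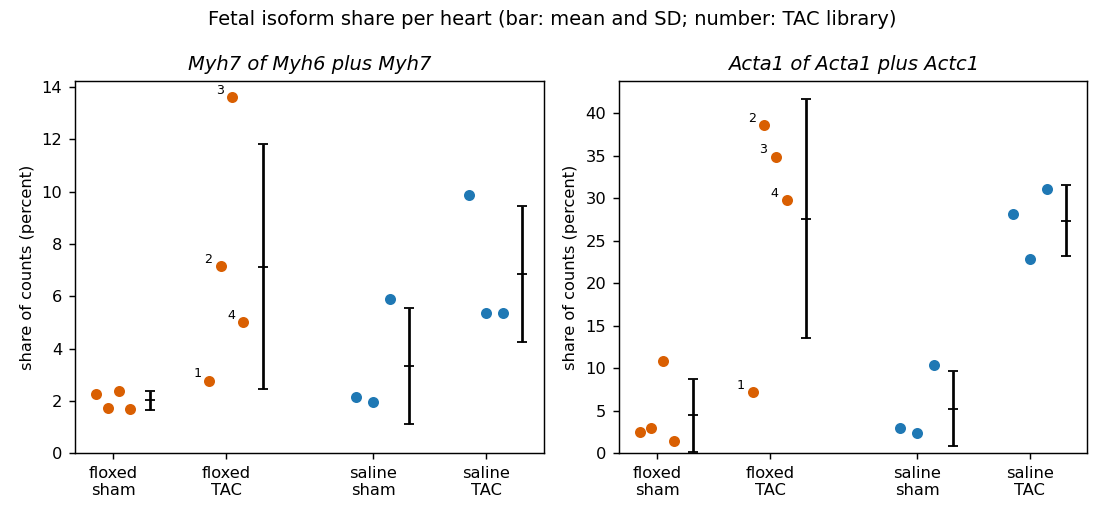
Share of counts in percent for Myh7 among Myh6 and Myh7 and for Acta1 among Acta1 and Actc1, 1 point per heart, with the mean and SD of each group beside the points, in the floxed and the PBS-injected cohort. Floxed TAC hearts span 2.77% to 13.6% for Myh7 and 7.20% to 38.6% for Acta1.

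In Xirp2, Ankrd1, Myot and Abra the TAC hearts came in the order of Acta1, with TAC 2 highest, then TAC 3, TAC 4 and TAC 1. Xirp2 (ENSMUSG00000027022, chromosome 2, 67446002 to 67526614, plus strand), an actin-binding protein of the intercalated disc, was at 447, 367, 523 and 379 CPM in sham and 551, 1858, 1431 and 1026 CPM in TAC hearts, with no overlap and a log2 fold change of 1.5 (SE 0.38, unadjusted p 0.00111) that was 0.89 without TAC 2 and TAC 3. Ankrd1, a titin-binding protein that responds to stretch, was at 1431, 987, 2499 and 1138 CPM in sham and at 1298, 7696, 5251 and 3519.6 CPM in TAC hearts. TAC 1 was inside the sham range and the other 3 TAC hearts were above it, with a log2 fold change of 1.55 (SE 0.45, unadjusted p 0.0036), or 0.68 without TAC 2 and TAC 3. Myot, which encodes the Z-disc protein myotilin, was at 42.9, 37.8, 53.3 and 47.2 CPM in sham and 59.4, 202, 159 and 132 CPM in TAC hearts. Abra, an actin-binding protein of striated muscle, was at 41.3 to 50.9 CPM in sham and 54.7, 227, 165 and 117 CPM in TAC hearts. Both had no overlap between groups, with log2 fold changes of 1.61 (SE 0.36, unadjusted p 0.000442) and 1.59 (SE 0.36, unadjusted p 0.000443), which were 1.08 and 0.88 without TAC 2 and TAC 3. Flnc, a filamin that cross-links actin at the Z-disc, had a smaller difference of 0.59 (SE 0.15, unadjusted p 0.00109), with 345 to 432 CPM in sham and 425 to 724 CPM in TAC hearts, and 0.34 without TAC 2 and TAC 3. Mybpc2, the fast-type myosin-binding protein C, was at 17.0 to 41.7 CPM in sham and at 31.1, 61.3, 56.3 and 57.3 CPM in TAC hearts, TAC 1 again being the lowest of its group and inside the sham range, while TAC 4 was above TAC 3. Titin (Ttn), the giant spring of the sarcomere, was at 2594 to 2871 CPM in sham and 3051 to 3200.2 CPM in TAC hearts, the log2 difference being only 0.21 (SE 0.08, unadjusted p 0.0193). Fhl1 and Nmrk2 had other orders. Fhl1, a stretch-related LIM protein, was at 113, 174, 125 and 109 CPM in sham and at 151, 293, 179.9 and 138 CPM in TAC hearts, TAC 4 being the lowest. Nmrk2, a nicotinamide riboside kinase, was at 9.35, 8.07, 14.7 and 8.82 CPM in sham and at 10.9, 22.1, 20 and 31.3 CPM in TAC hearts, TAC 4 being the highest. Their log2 differences were 0.55 and 1.04, and 0.15 and 1.05 without TAC 2 and TAC 3.

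The natriuretic peptides differed from each other. Nppb, which encodes B-type natriuretic peptide, was at 372, 54.3, 297 and 154 CPM in sham and 149.9, 564, 537 and 518 CPM in TAC hearts. The TAC hearts came in the order of Acta1, with TAC 2, TAC 3 and TAC 4 above all sham hearts, but sham 1, sham 3 and sham 4 were above TAC 1, and the log2 fold change of 1.01 (SE 0.50) had an unadjusted p of 0.0584 and was 0.61 without TAC 2 and TAC 3. Nppa, the atrial natriuretic peptide, was at 194, 2443, 283 and 14.4 CPM in sham and 256, 150.4, 490.3 and 197 CPM in TAC hearts. The groups overlapped and the highest value was that of sham 2, the heart with 1106 CPM of Myl7. The log2 fold change was −1.42 (SE 1.02) and turned to 0.73 without sham 2. The 8 atrial marker genes summed to 42.5 to 5453 CPM in sham and 166 to 506 CPM in TAC hearts, and their part in the Nppa values was not tested.

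Neurohormonal genes were split. Of 22 tested, 3 were higher and 4 lower at an unadjusted p under 0.05, where 6.67% and 4.44% of all genes were. The median log2 fold change was −0.26. Without TAC 2 and TAC 3, 1 (Edn3) was higher and 0 lower, where 1.17% and 0.9% of all genes were. Edn3 (ENSMUSG00000027524, chromosome 2, 174760619 to 174784042, plus strand), which encodes the vasoactive peptide endothelin 3, had the smallest p of all genes ranked by the naming rule. It was at 2.02, 1.96, 2.16 and 0.555 CPM in sham and at 4.50, 25.3, 18.8 and 12.9 CPM in TAC hearts. All 4 TAC hearts were above all sham hearts, TAC 1 the least, and the log2 fold change was 3.19 (SE 0.58, unadjusted p 5.92e-05, adjusted p 0.328 in edgeR) and 2.37 without TAC 2 and TAC 3. Ace, which makes angiotensin II, was at 51.7 to 70.9 CPM in sham and 64.4 to 103 CPM in TAC hearts (0.51, SE 0.15, unadjusted p 0.0042, and 0.35 without TAC 2 and TAC 3). Adrb1, the beta-1 adrenergic receptor, was at 24.2 to 31.4 CPM in sham and at 25.4, 13.5, 14.2 and 22.8 CPM in TAC hearts, a log2 difference of −0.53 (SE 0.18, unadjusted p 0.0086) that was −0.18 without TAC 2 and TAC 3. Corin, the protease that activates natriuretic peptides, was at 162, 174, 131 and 207 CPM in sham and 139, 102, 107 and 88.1 CPM in TAC hearts, and it kept a log2 difference of −0.56 without those 2 hearts (−0.62 with them, SE 0.22, unadjusted p 0.0115).

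Matrix genes divided into the main fibrillar collagens, which differed by less than their errors, and a set of secreted proteins of loaded tissue, which had higher values in TAC hearts. Of 18 collagens tested, 3 (Col8a1, Col12a1 and Col8a2) were higher and 0 lower at an unadjusted p under 0.05, where 6.67% of all genes were higher. The median log2 fold change of the list was 0.03. With TAC 2 and TAC 3 left out only Col8a1 had an unadjusted p under 0.05. Col1a1 and Col3a1, the main fibrillar collagens of scar, were at 121 ± 12.2 and 248 ± 34.8 CPM in sham and at 123 ± 21 and 227 ± 31.7 CPM in TAC hearts (SD, n = 4 each). Their log2 fold changes of 0.02 (SE 0.20) and −0.13 (SE 0.32) were smaller than their standard errors. Col8a1 (ENSMUSG00000068196, chromosome 16, 57624258 to 57754737, minus strand), a short-chain collagen, was at 14.4, 16.1, 20.2 and 11.1 CPM in sham and 22.4, 68.9, 67.7 and 49.4 CPM in TAC hearts. The groups did not overlap and the order of hearts was that of Acta1, with a log2 fold change of 1.75 (SE 0.37, unadjusted p 0.00027) and 1.22 without TAC 2 and TAC 3. Col12a1, which links fibrils to other matrix, was at 0.978 to 1.42 CPM in sham and 1.54 to 3.25 CPM in TAC hearts.

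Among 45 other matrix and fibrosis genes, 21 were higher and 0 lower at an unadjusted p under 0.05, where 6.67% of all genes were higher. The median log2 fold change of the list was 0.33. Without TAC 2 and TAC 3 only Cilp and Thbs4 had an unadjusted p under 0.05 and the median was 0.12. Cilp (ENSMUSG00000042254, chromosome 9, 65265180 to 65280605, plus strand), a secreted matrix protein made by activated cardiac fibroblasts, was at 5.87, 8.83, 18 and 5.06 CPM in sham and 22.8, 58.3, 55.5 and 40.6 CPM in TAC hearts. No TAC heart was within the sham range, and the log2 fold change was 2.23 (SE 0.43, unadjusted p 9.96e-05), or 1.75 without TAC 2 and TAC 3. Postn, periostin, another product of activated fibroblasts, was at 25.4, 34.2, 41.9 and 35.3 CPM in sham and 40.6, 114, 156 and 73.9 CPM in TAC hearts, TAC 1 being just below sham 3 (1.49, SE 0.43, unadjusted p 0.00356, and 0.75 without TAC 2 and TAC 3). Thbs4, a thrombospondin of loaded tissue, was at 2.77 to 8.62 CPM in sham and 8.22, 15, 17.9 and 14.8 CPM in TAC hearts. Ltbp2 and Tgfb2, a latent TGF-beta binding protein and a TGF-beta ligand, had log2 fold changes of 1.28 (SE 0.47) and 0.61 (SE 0.25), and Ccn5 and Ccn2, matricellular proteins, 1.12 (SE 0.44) and 1.01 (SE 0.41). With TAC 2 and TAC 3 left out these were 0.70 for Ltbp2, 0.27 for Tgfb2, 1.02 for Ccn5 and 0.26 for Ccn2, and that of Thbs4 was 1.03. P4ha1, a subunit of the enzyme that hydroxylates collagen, was at 40.6 to 44.9 CPM in sham and at 49.6, 73.6, 68.3 and 55.8 CPM in TAC hearts, a small difference of 0.51 (SE 0.12, unadjusted p 0.000793) with no overlap, and 0.28 without TAC 2 and TAC 3. Other members of the list had the other shape: Thbs1, a thrombospondin that activates TGF-beta, was at 4.34 to 7.63 CPM in sham and at 5.48, 147, 172 and 11 CPM in TAC hearts, and Timp1, a metalloproteinase inhibitor, at 1.04 to 4.58 CPM in sham and at 2.96, 9.89, 14.7 and 2.1 CPM in TAC hearts. Their log2 differences were 3.76 (SE 1.01) and 1.61 (SE 0.67), and 0.42 and 0.08 without TAC 2 and TAC 3.

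**Figure D3:**
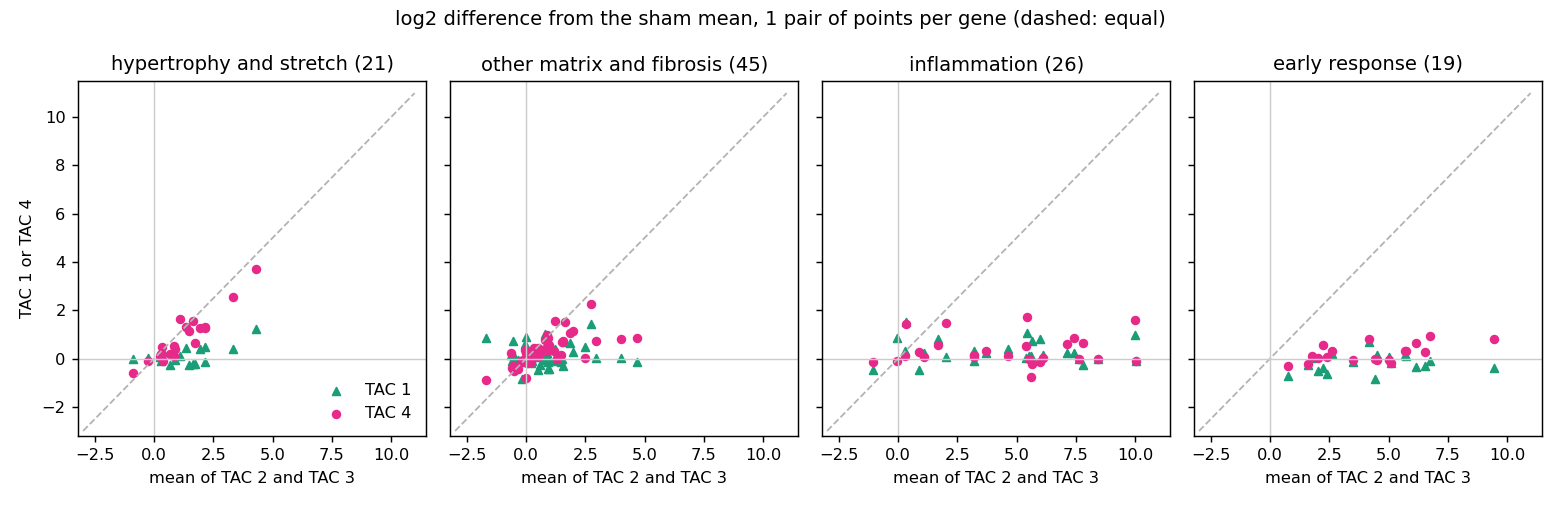
Log2 difference from the sham mean for each gene of 4 lists, with the mean of TAC 2 and TAC 3 on the horizontal axis and TAC 1 (triangles) or TAC 4 (circles) on the vertical axis; the dashed line marks equal values. Many hypertrophy and matrix genes have TAC 4 between 0 and the dashed line, while inflammation and early response genes reach high values on the horizontal axis with TAC 1 and TAC 4 near 0.

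Most inflammatory genes were far higher in TAC 2 and TAC 3 than in the other hearts. Of 26 tested, 21 were higher and 0 lower at an unadjusted p under 0.05, where 6.67% of all genes were higher. The list had a median log2 fold change of 4.51. Relative to the sham mean the list's median was 0.23 in TAC 1, 5.32 in TAC 2, 5.34 in TAC 3 and 0.10 in TAC 4. In TAC 1 and in TAC 4, 9 of the 26 lay above every sham heart, where 17.1% and 21% of all genes tested did so. None had an unadjusted p under 0.05 once TAC 2 and TAC 3 were left out, and the median was then 0.20. TAC 2 and TAC 3 are the hearts with 3.41 and 1.74 CPM of haemoglobin transcripts, against 384 to 572 CPM in the other 6, and what that difference has to do with these genes was not tested.

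Icam1, the adhesion molecule by which leukocytes bind endothelium, was at 11.9, 15.2, 13.8 and 11.8 CPM in sham and 14.7, 738, 1121 and 13.2 CPM in TAC hearts. TAC 1 and TAC 4 were inside the sham range and the other pair were far above it, with a log2 fold change of 5.16 (SE 1.25, unadjusted p 0.000867) that was 0.09 without that pair. The neutrophil chemokine Cxcl1 was at 0.428, 1.20, 0.683 and 0.925 CPM in sham and 1.59, 711, 1113 and 2.54 CPM in TAC hearts (9.12, SE 2.29, unadjusted p 0.00117, and 1.34 without TAC 2 and TAC 3). TAC 1 and TAC 4 were just above the sham hearts at levels of a few CPM, so that this gene met the no-overlap rule with 2 very different sizes of difference. Nfkbia, the inhibitor that NF-kB itself induces, was at 38.5, 39.2, 29.2 and 36.1 CPM in sham and 42.0, 474, 462 and 44.7 CPM in TAC hearts (2.84, SE 0.71, unadjusted p 0.00111, and 0.28 without TAC 2 and TAC 3). Ccl2, the monocyte chemokine, was at 1.76 to 2.96 CPM in sham and 2.85, 314, 395 and 3.65 CPM in TAC hearts. Il1b, which encodes interleukin 1 beta, was at 0.183 to 0.709 CPM in sham and 0.439, 101, 64.7 and 0.719 CPM in TAC hearts. The log2 differences of Ccl2 and Il1b were 0.43 and 0.56 without TAC 2 and TAC 3. For the cytokine gene Il6 no read was counted in 6 of the 8 hearts, while TAC 2 and TAC 3 held 708 and 572 counts (42.7 and 35.1 CPM). Tnfrsf12a, the receptor for TWEAK, had the graded shape instead, at 15.5 to 47.7 CPM in sham and 32.9, 141, 114 and 86.6 CPM in TAC hearts, and its log2 difference was 0.81 without TAC 2 and TAC 3. Lcn2, which encodes the iron-binding protein lipocalin 2 and was chosen after its values were seen, was at 0.978, 2.40, 2.39 and 0.802 CPM in sham and 4.39, 2.83, 1.23 and 4.20 CPM in TAC hearts. It was highest in TAC 1 and TAC 4, with a log2 difference of 0.94 (SE 0.75, unadjusted p 0.231).

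The promoters of Cxcl1 and Nfkbia are shown because these genes rank among the 12 named for higher levels and both hold the NF-kB letters searched for (GGGNNNTTCC, read on either strand, in capitals). Both are from RefSeq on GRCm38.p6, the first chr5:90890995-90891244 on the plus strand and the second chr12:55492648-55492897 on the minus strand.
Cxcl1: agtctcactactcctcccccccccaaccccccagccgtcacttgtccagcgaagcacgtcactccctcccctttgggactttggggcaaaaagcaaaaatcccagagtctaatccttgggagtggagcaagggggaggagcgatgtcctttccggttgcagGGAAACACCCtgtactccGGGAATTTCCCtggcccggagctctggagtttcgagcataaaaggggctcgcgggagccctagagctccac
Nfkbia: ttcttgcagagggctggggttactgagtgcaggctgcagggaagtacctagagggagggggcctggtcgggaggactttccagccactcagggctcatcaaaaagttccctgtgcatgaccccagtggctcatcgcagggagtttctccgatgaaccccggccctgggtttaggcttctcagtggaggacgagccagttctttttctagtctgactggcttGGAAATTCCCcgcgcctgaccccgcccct
Cxcl1 holds 3 matches, of which 2 overlap each other on opposite strands, and Nfkbia holds 1. Over 20 inflammation genes with a promoter, 6 (30%) held a match, namely Csf1, Cxcl1, Cxcl2, Il1r1, Il6 and Nfkbia, against 5.31% of 27025 genes. Of 15 early response genes with a promoter, 0 held these letters in the window.

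Immediate early genes were also far higher in TAC 2 and TAC 3 than in the other hearts. Of 19 tested, 17 were higher and 0 lower at an unadjusted p under 0.05, where 6.67% of all genes were higher. Their median was 3.36. Without TAC 2 and TAC 3 none were higher or lower at that threshold and the median was −0.07. Egr1, an early growth response transcription factor, was at 12.2, 36.3, 12.6 and 11.7 CPM in sham and 17.8, 715, 958 and 19.8 CPM in TAC hearts, TAC 1 and TAC 4 being inside the sham range. Fos, a component of AP-1, was at 1.04 to 4.80 CPM in sham and 1.54, 145, 259.7 and 2.38 CPM in TAC hearts, and its log2 difference of 5.43 (SE 2.04, unadjusted p 0.0176) became −0.26 without TAC 2 and TAC 3. Egr3, Atf3 and Myc, also transcription factors, had 139 to 219.9, 280.3 to 296 and 50.8 to 54.3 CPM in TAC 2 and TAC 3 and at most 3.04, 6.13 and 4.92 CPM in the other 6 hearts. The log2 differences of Egr1, Egr3, Atf3 and Myc were 0.05, 0.40, 0.19 and 0.70 without TAC 2 and TAC 3. Nuak2 (ENSMUSG00000009772, chromosome 1, 132316126 to 132333488, plus strand), an AMPK-related kinase, was at 2.89 to 4.07 CPM in sham and 4.11, 71.9, 86.5 and 4.86 CPM in TAC hearts (3.58, SE 0.81, unadjusted p 0.00048, and 0.37 without TAC 2 and TAC 3). Kctd11, an adaptor of ubiquitin ligases, was at 4.31 to 5.29 CPM in sham and 5.43, 25.9, 33.9 and 6.63 CPM in TAC hearts, with a log2 difference of 0.34 without that pair.

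Heat shock genes were higher in TAC 2 and TAC 3 by less, and some were above sham in TAC 4 too. Of 9 heat shock genes, 6 were higher at an unadjusted p under 0.05 (median 0.77), where 6.67% of all genes were. Without TAC 2 and TAC 3, 0 of the 9 were (median 0.16). In TAC 4, 6 of the 9 lay above every sham heart, where 21% of all genes did so, and in TAC 1 it was 1. Hspa1a, an inducible chaperone of the HSP70 family, was at 1.77, 2.40, 1.02 and 2.71 CPM in sham and 1.70, 28.0, 165 and 2.93 CPM in TAC hearts, so that TAC 3 was well above TAC 2. Hsp90aa1, an inducible HSP90 chaperone, was at 103 to 126 CPM in sham and 124, 347, 361 and 143 CPM in TAC hearts, and Hspb1, a small heat shock protein, at 121 to 212 CPM in sham and 182, 444, 370.0 and 214 CPM in TAC hearts. Their log2 differences were 0.24, 0.23 and 0.16 without TAC 2 and TAC 3. Of 18 integrated stress response genes 5 were higher at an unadjusted p under 0.05 (median 0.20), where 6.67% of all genes were. Atf4, its central transcription factor, was at 60.5 to 67.0 CPM in sham and 56.3, 197, 204 and 69.7 CPM in TAC hearts. Gdf15, a secreted stress cytokine, was at 0.545 to 2.22 CPM in sham and 0.658, 8.86, 12.2 and 2.21 CPM in TAC hearts. The log2 differences of Atf4 and Gdf15 were 0.01 and 0.02 without TAC 2 and TAC 3, and the list held 0 genes with an unadjusted p under 0.05. The haemoglobin values of TAC 2 and TAC 3 given above stand beside these lists too, and their part was not tested.

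Over the 10608 genes above 5 CPM the shapes can be counted. There were 360 genes at least 2-fold above the sham mean in both TAC 2 and TAC 3. Of these, 38 (10.6%) were also 2-fold above it in TAC 4, 6 also in TAC 1, and 4 in all 4 TAC hearts (Acta1, Edn3, Cilp and the platelet and endothelial adhesion gene Selp), while in 180 TAC 4 lay within 0.25 of the sham mean on the log2 scale. The 38 include Acta1, Edn3, Cilp, Col8a1, Nppb, Myot, Bdh1, Thbs4, Tnfrsf12a, Abra, Ankrd1, Mybpc2, Xirp2, Myh7, Postn and Ltbp2. Of 163 genes at least 2-fold below the sham mean in both TAC 2 and TAC 3, 57 (35%) were so in TAC 4 and 10 in TAC 1. These are descriptions of the libraries and carry no test.

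**Figure D4:**
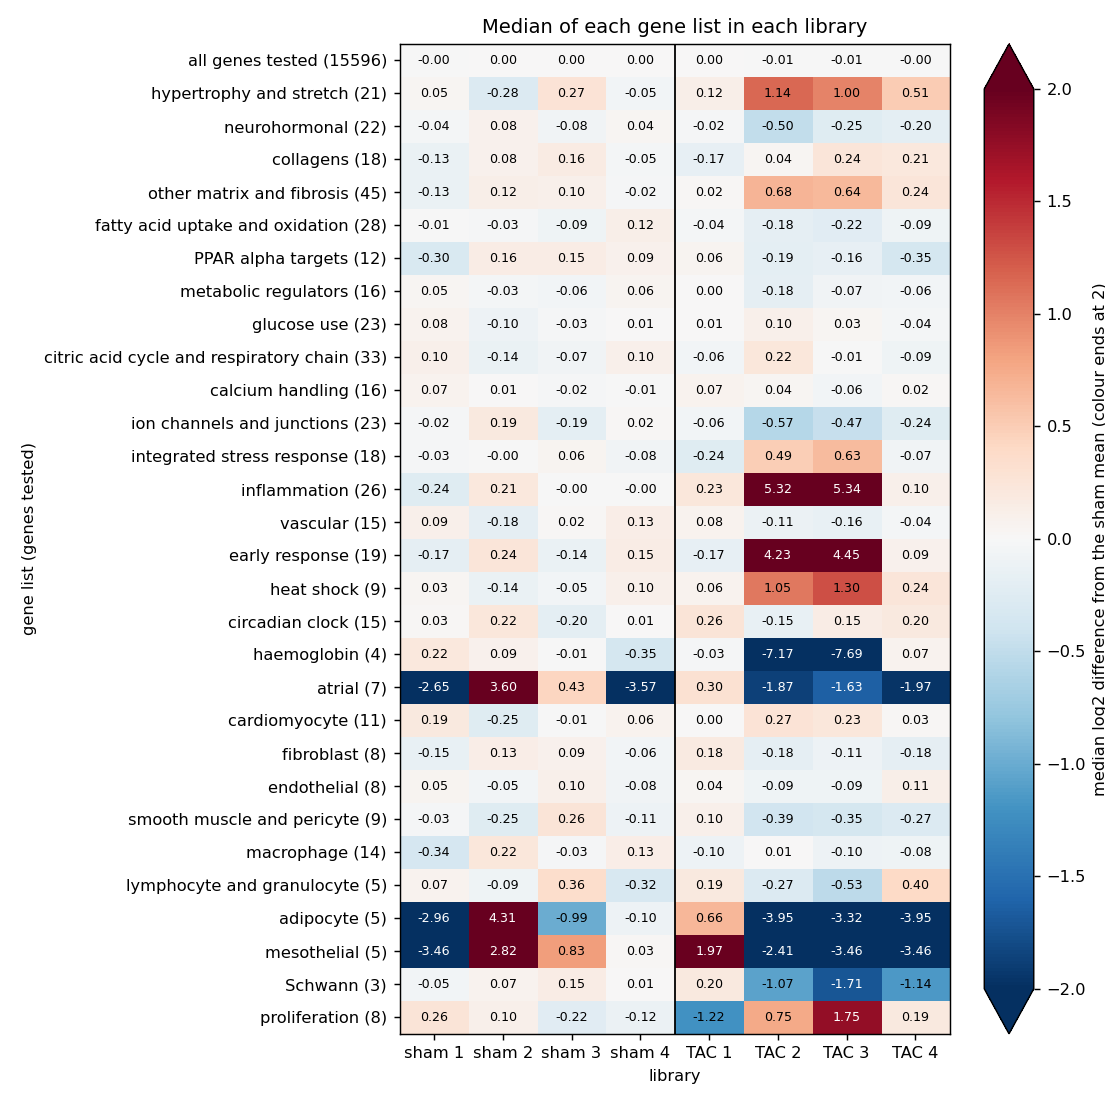
Median log2 difference from the sham mean for each gene list (rows, with the number of genes tested) in each of the 8 libraries (columns); colour ends at 2 and the printed number is the value. Inflammation and early response reach 4.23 to 5.34 in TAC 2 and TAC 3 only, while hypertrophy and stretch runs 0.12, 1.14, 1.0 and 0.51 over TAC 1 to 4.

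Some genes of fatty acid use had lower values in TAC 2 and TAC 3. Of 28 fatty acid uptake and oxidation genes, 5 were lower (Slc27a1, Acaa2, Crat, Mlycd and Hadh) and 0 higher at an unadjusted p under 0.05, where 4.44% of all genes were lower. The median log2 fold change was −0.12. With TAC 2 and TAC 3 left out none had an unadjusted p under 0.05 and the median was −0.0682. Slc27a1, a fatty acid transport protein, was at 230.0, 345, 245 and 309.9 CPM in sham and 269, 116, 144 and 177 CPM in TAC hearts. TAC 1 was inside the sham range and the other 3 below it, for a log2 fold change of −0.68 (SE 0.22, unadjusted p 0.00774) that was −0.33 without TAC 2 and TAC 3. Acaa2, the last enzyme of a beta-oxidation cycle, was at 879 to 1060.3 CPM in sham and 914, 698, 642 and 756 CPM in TAC hearts (−0.38, SE 0.13, unadjusted p 0.00883, and −0.22 without that pair). Cpt1a itself had a log2 fold change of −0.59 (SE 0.32, unadjusted p 0.083, adjusted p 0.495 in edgeR), and −0.12 without TAC 2 and TAC 3. Cpt1b, the muscle isoform, was at 10.2 to 12.4 CPM in sham and 10.4, 2.95, 7.30 and 8.90 CPM in TAC hearts. An annotated readthrough gene covers all exons of Cpt1b, so its counts are uncertain. The Cpt1a share of Cpt1a and Cpt1b counts, 80.2% in sham and 79.5% in TAC hearts on average, carries the same limit (exact permutation p 0.857). The carrier Cd36 was at 1476 ± 125 CPM in sham and 1356 ± 124 CPM in TAC hearts (SD, n = 4 each). Fabp3, which carries fatty acids inside the cell, went the other way, at 3271, 2923, 3077 and 3218 CPM in sham and 3361, 4445, 3871 and 4305 CPM in TAC hearts. All 4 TAC hearts were above all sham hearts, TAC 1 by the least, with a log2 fold change of 0.36 (SE 0.27).

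The 12 PPAR alpha targets had a median log2 fold change of −0.29. Pdk4, a target that inhibits pyruvate dehydrogenase, was at 124 to 905 CPM in sham and 197 to 549 CPM in TAC hearts, and its log2 difference of −0.36 (SE 0.51) turned to 0.12 without sham 4. Of 16 metabolic regulators 3 were lower at an unadjusted p under 0.05 (Rxra, Klf15 and Pparg; median −0.06), against 4.44% of all genes, and 0 of 16 were lower without TAC 2 and TAC 3. Rxra, the partner receptor of the PPARs, was at 74.0 to 84.2 CPM in sham and 74.0, 46.9, 52.5 and 73.0 CPM in TAC hearts, and Klf15, a metabolic transcription factor, at 39.2 to 55.5 and 48.7, 32.4, 31.7 and 40.4 CPM. Their log2 differences were −0.12 and −0.15 without TAC 2 and TAC 3. Ppara and the coactivator Ppargc1a had log2 fold changes of 0.41 (SE 0.22) and −0.16 (SE 0.17). Without TAC 2 and TAC 3 Ppara was the regulator with an unadjusted p under 0.05, at 0.70.

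Among 23 genes of glucose use, Hk2 was higher and Pfkfb1 lower at an unadjusted p under 0.05 (median 0.02), and none without TAC 2 and TAC 3. These counts are near the shares over all genes, 6.67% higher and 4.44% lower. Hk2, the insulin-regulated hexokinase, was at 365, 306, 319 and 327 CPM in sham and 375, 437, 389 and 403 CPM in TAC hearts, all 4 above sham (0.28, SE 0.11, unadjusted p 0.0173, and 0.25 without TAC 2 and TAC 3). Pfkfb1, which makes an activator of glycolysis, was at 11.3 to 23.9 CPM in sham and 20.0, 4.04, 5.46 and 6.58 CPM in TAC hearts, and its log2 difference was −0.38 without TAC 2 and TAC 3. Of 33 citric acid cycle and respiratory chain genes only Cs passed an unadjusted p of 0.05 (median 0.01). Cs, citrate synthase, was at 1212 to 1348 CPM in sham and 1159, 1002, 1048 and 1054 CPM in TAC hearts, every TAC heart below every sham heart by a small margin (−0.26, SE 0.09, unadjusted p 0.0151, and −0.20 without TAC 2 and TAC 3). Mitochondrially encoded transcripts took 23.7% of counts in sham and 21.7% in TAC hearts (exact permutation p 0.0857, adjusted 0.143). Bdh1, a mitochondrial enzyme of ketone body oxidation outside these lists, was chosen after its values were seen, and no list of ketone genes was tested. It was at 178, 142, 146 and 159 CPM in sham and 296, 433, 331 and 448 CPM in TAC hearts. All TAC hearts were above all sham hearts, TAC 4 the most and TAC 1 the least. The log2 fold change was 1.27 (SE 0.35, unadjusted p 0.00217, adjusted p 0.328 in edgeR) and 1.26 without TAC 2 and TAC 3.

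Of 16 calcium handling genes 0 passed an unadjusted p of 0.05 in either direction (median 0.02). Atp2a2, the calcium pump of the sarcoplasmic reticulum, was at 13493 ± 1617 CPM in sham and 11654 ± 2001 CPM in TAC hearts, its inhibitor Pln at 1726 ± 238 and 1581 ± 159.5 CPM, and the release channel Ryr2 at 1004 ± 182 and 869.9 ± 180.4 CPM (SD, n = 4 each). Casq2, the store's calcium buffer, was at 824 to 945 CPM in sham and 858, 1231, 1182 and 1047 CPM in TAC hearts. Of 23 ion channel and junction genes 5 were lower (Hcn2, Kcnh2, Kcnj11, Kcnq1 and Cacna1h) and 0 higher at an unadjusted p under 0.05, with a median of −0.30, where 4.44% of all genes were lower. With TAC 2 and TAC 3 left out 0 of the 23 were lower (median −0.15), and 0 were with a term for hearts of few haemoglobin transcripts (median −0.24). Kcnh2, a repolarising potassium channel, was at 95.6, 134, 78.8 and 102 CPM in sham and 94.3, 43.7, 61.2 and 63.8 CPM in TAC hearts, with TAC 1 inside the sham range (−0.64, SE 0.26, unadjusted p 0.0273, and −0.37 without TAC 2 and TAC 3). Hcn2, a pacemaker channel, was at 40.3, 20.4, 32.7 and 44.3 CPM in sham and 21.9, 18.5, 22.1 and 22.5 CPM in TAC hearts, close to sham 2 and below the other sham hearts (−0.69, SE 0.26, unadjusted p 0.0192, and −0.63 without that pair). Kcnd2 and Kcnv2, potassium channel subunits, were at 12.6 to 35.2 and 7.46 to 17.6 CPM in sham and at 7.18 to 24.8 and 2.95 to 15 CPM in TAC hearts.

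The genes ranked as lower that are described here came from several functions. Cenpf (ENSMUSG00000026605, chromosome 1, 189640606 to 189688086, minus strand), a centromere and microtubule-binding protein, was at 57.9, 20.3, 17.4 and 45.7 CPM in sham and 9.38, 4.28, 13.1 and 4.75 CPM in TAC hearts (−2.16, SE 0.49, unadjusted p 0.000508, and −2.32 without TAC 2 and TAC 3), with a wide spread among sham hearts. Lrrc3b, a leucine-rich repeat membrane protein, was at 21.5 to 32.6 CPM in sham and 20.3, 12.1, 12.3 and 11.2 CPM in TAC hearts (−0.93, SE 0.24), and Mpped2, a metallophosphoesterase, at 16.3 to 28.8 and 8.98 to 14.1 CPM (−0.79, SE 0.21). Nav2, which guides cytoskeletal growth, was at 55.5 to 64.1 CPM in sham and 23.5 to 45.0 CPM in TAC hearts, and Gramd4 at 45.3 to 58.8 and 25.8 to 41.2 CPM. The zinc finger genes Zfp574, Zfp746 and Zkscan7 had log2 differences of −0.68, −0.44 and −0.59, the corepressor gene Irf2bp1 −0.46 and the membrane scaffold gene Flot2 −0.27. With TAC 2 and TAC 3 left out the log2 differences of Lrrc3b, Mpped2, Nav2 and Gramd4 were −0.75, −0.67, −0.45 and −0.39, and those of the 5 genes last named ran from −0.44 to −0.23. Of the higher genes not yet named, Sorl1, a sorting receptor, was at 8.19 to 12.0 CPM in sham and 12.5 to 17.6 CPM in TAC hearts (0.69, SE 0.16, unadjusted p 0.000695, and 0.58 without TAC 2 and TAC 3).

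Few markers of cell types had an unadjusted p under 0.05, and of those lists Cd163 alone had one without TAC 2 and TAC 3. Over all genes 6.67% were higher and 4.44% lower at that threshold, and 1.17% and 0.9% without TAC 2 and TAC 3. In bulk tissue fewer cells of a type cannot be told apart from less RNA per cell. At an unadjusted p under 0.05 the fibroblast list (8 tested, median −0.12) and the lymphocyte and granulocyte list (5, median 0.02) held 0 genes. The endothelial list (8, median 0.01) held Cldn5 and the cardiomyocyte list (11, median 0.17) Ttn, both higher, and the macrophage list (14, median −0.09) held Cd163 and the smooth muscle and pericyte list (9, median −0.21) Acta2, both lower. Summed over each list, endothelial markers were at 1228 to 1317 CPM in sham and 1091 to 1362 CPM in TAC hearts, fibroblast markers at 2024 to 2291 and 1813 to 2282 CPM, macrophage markers at 358 to 576 and 401 to 558 CPM, and lymphocyte and granulocyte markers at 2.84 to 6.43 and 2.88 to 6.80 CPM. The macrophage and leukocyte sums thus overlapped between groups, while Icam1 reached 738 and 1121 CPM in TAC 2 and TAC 3. Cd163, a scavenger receptor of resident macrophages, was at 12.7, 18.4, 14.3 and 27.1 CPM in sham and 11.2, 9.71, 13.7 and 10.8 CPM in TAC hearts (−0.67, SE 0.24, unadjusted p 0.0128, and −0.71 without TAC 2 and TAC 3). Acta2, smooth muscle actin, was at 75.8 to 189.9 CPM in sham and 126, 56.2, 39.6 and 55.8 CPM in TAC hearts. Cldn5, a tight junction protein of endothelium, was at 15.1 to 41.3 CPM in sham and 25.4, 141, 105 and 17.4 CPM in TAC hearts. The log2 differences of Acta2 and Cldn5 were −0.52 and −0.39 without TAC 2 and TAC 3. Adipocyte markers summed to 0.733 to 179.7 CPM in sham hearts, highest in sham 2, and to 0 to 16.9 CPM in TAC hearts, with a list median of −3.55 and 2 genes (Plin1 and Adipoq) lower at an unadjusted p under 0.05. No gene of the atrial (7 tested, median −2.72), haemoglobin (4, median −0.97), Schwann cell (3, median −0.69) or proliferation (8, median 0.83) list had an unadjusted p under 0.05. In the mesothelial list (5, median −0.98) Wt1 did, and it was higher in TAC hearts, against the median of its list.

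Of 15 vascular genes Pgf was higher and Hey1 lower at an unadjusted p under 0.05 (median −0.01), and none without TAC 2 and TAC 3. For this list and the clock list below, such counts are near the shares over all genes (6.67% higher and 4.44% lower). Pgf, placental growth factor, was at 3.42 to 6.66 CPM in sham and 6.14, 17.7, 33.9 and 3.21 CPM in TAC hearts, and Hey1, a Notch target, at 8.72 to 16.9 and 11, 3.26, 4.29 and 10.1 CPM, with log2 differences of −0.0606 and −0.43 without TAC 2 and TAC 3. Flt1, a VEGF receptor, was at 114, 106, 119.8 and 122 CPM in sham and 149, 138, 166 and 146 CPM in TAC hearts, with no overlap (0.38, SE 0.20, unadjusted p 0.0807). Of 15 clock genes Bhlhe41, a repressor in the clock loop, was the only one at an unadjusted p under 0.05, with 31.0 to 39.5 CPM in sham and 42.1 to 47.3 CPM in TAC hearts (median of the list 0.10).

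The overload effect was then set beside that in the PBS-injected C57Bl/6 hearts (3 TAC against 3 sham), which share no library with the floxed hearts. Strain, injection and cohort go together with this difference and cannot be told apart. The test of the difference between the overload effects called 0 of 16583 genes in edgeR (smallest adjusted p 0.0728), with 1580 (9.53%) higher and 429 (2.59%) lower in the floxed hearts at an unadjusted p under 0.05. The PBS sham hearts were not alike. Of 10761 genes above 5 CPM, PBS sham 3 had 1412 at least 2-fold above and 1529 at least 2-fold below the mean of the other 2, against 268 to 569 above and 223 to 494 below for PBS sham 1 and 2. Atp2a2 was at 13265, 12281 and 1962 CPM in PBS sham 1 to 3, Cs at 1247, 1044 and 204 CPM, and Fabp3 at 3281, 2048 and 553 CPM. With PBS sham 3 left out the test of the difference called 0 of 16810 genes, with 677 (4.03%) higher and 442 (2.63%) lower in the floxed hearts at an unadjusted p under 0.05. Most values that use the PBS hearts are therefore given with and without it, and for the PBS fold changes this was chosen after seeing the data. DESeq2 called 136 genes and voom called 3, and the edgeR count reached 90 without TAC 1, 113 without TAC 4 and 240 without the first PBS sham heart.

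Among all 15596 genes tested, 7252 had a positive log2 fold change in PBS hearts, and 7657 without PBS sham 3. Of the 38 genes at least 2-fold above the sham mean in TAC 2, TAC 3 and TAC 4, 36 had a positive log2 fold change in PBS hearts, with and without PBS sham 3, and Selp and Cxcl1 were the negative ones. With all 6 PBS hearts it was 3.05 for Edn3 (3.19 in floxed hearts), 2.29 for Cilp (2.23), 1.82 for Col8a1 (1.75), 1.61 for Myot (1.61), 1.69 for Myh7 (1.73), 1.80 for Xirp2 (1.5), 1.94 for Ankrd1 (1.55) and 4.23 for Acta1 (3.27). It was smaller than in floxed hearts for Postn, at 0.78 (1.49), Abra, at 0.95 (1.59), and Tnfrsf12a, at 0.70 (1.45), with unadjusted p of 0.317, 0.33 and 0.185 for the difference. With PBS sham 3 left out the PBS values were 2.57 for Edn3, 2.13 for Cilp, 1.94 for Col8a1, 1.20 for Myot, 1.82 for Myh7, 1.51 for Xirp2, 1.61 for Ankrd1, 3.96 for Acta1, 1.3 for Postn, 0.45 for Abra and 0.43 for Tnfrsf12a. Abra then had an unadjusted p of 0.0479 for the difference. For Edn3 the difference was 0.15 with an unadjusted p of 0.88 (0.61 and 0.558 without PBS sham 3), and for Acta1 −0.94 with 0.415 (−0.69 and 0.583). A p of that size does not show that the effects are equal. The Acta1 share of the actin counts was 2.97%, 2.44% and 10.3% in PBS sham 1 to 3 and 28.2%, 22.8% and 31.1% in PBS TAC hearts. The Myh7 share of the myosin counts was 2.15%, 1.98% and 5.89% in PBS sham and 9.88%, 5.35% and 5.37% in PBS TAC hearts, so that PBS sham 3 lay among the TAC hearts. For Bdh1 the log2 fold change was 2.01 in PBS hearts (1.55 without PBS sham 3) and 1.27 in floxed hearts. For genes ranked lower the PBS value was 0.09 for Cenpf (−0.24 without PBS sham 3), −0.02 for Lrrc3b (−0.43) and 0.08 for Mpped2 (−0.11). It was −0.14 for Zfp574 (−0.08), −0.36 for Zfp746 (0.06), 0.13 for Zkscan7 (0.04), 0.10 for Irf2bp1 (−0.11) and 0.13 for Flot2 (−0.09). Nav2 was at −0.50 (−0.12) and Gramd4 at −0.53 (−0.52). The difference had an unadjusted p under 0.05 for Cenpf, Lrrc3b, Zfp574, Zkscan7, Irf2bp1 and Flot2. Without PBS sham 3 it did for Zfp574, Zkscan7, Nav2 and Zfp746.

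The genes that, among the floxed hearts, were far higher in TAC 2 and TAC 3 than in the others were compared with PBS hearts. None of the PBS hearts held few haemoglobin transcripts (344 to 791 CPM in all 6). Over all genes tested, 7252 of 15596 had a positive log2 fold change in PBS hearts, and 7657 without PBS sham 3. Of 26 inflammation genes 8, and of 19 early response genes 7, had a positive log2 fold change there, against 10 and 9 without PBS sham 3. It was −1.08 for Cxcl1, −1.0 for Icam1, −0.99 for Ccl2, −1.04 for Nfkbia, −0.47 for Nuak2 and −1.06 for Hsp90aa1, and −0.28, −0.45, −1.19, −0.67, −0.12 and −1.14 without PBS sham 3. It was positive for Gdf15 (1.24), Egr3 (1.05), Kctd11 (0.34), Egr1 (0.25) and Timp1 (0.0452). Without PBS sham 3 these were 0.87, 1.08, 0.45, 0.51 and 0.36. Egr1 was at 52.4, 75.3 and 104 CPM in PBS sham and 43.6, 31.0 and 202 CPM in PBS TAC hearts. Egr3 was at 8.49, 11.4 and 10.8 CPM in PBS sham and 9.31, 5.03 and 49.3 CPM in PBS TAC hearts. The positive values of Egr1 and Egr3 thus go with PBS TAC 3. Icam1 was at 14.7, 27.7 and 51.2 CPM in the PBS sham hearts and 17.2, 16.4 and 13.2 CPM in the PBS TAC hearts, so its negative value there goes with the sham hearts at 27.7 and 51.2 CPM. Some of these genes stood higher in PBS sham than in floxed sham hearts. CPM of PBS hearts were scaled over all 30 libraries, and CPM of floxed hearts over the 16 of the floxed cohort. Levels of the cohorts therefore do not share a single scaling. Hsp90aa1 was at 373, 558 and 395 CPM in PBS sham and 217, 164 and 257 CPM in PBS TAC hearts. Hspa1a was at 76.0, 211 and 66.5 CPM in PBS sham and 31.7, 10.5 and 34.7 CPM in PBS TAC hearts. Cxcl1 was at 1.40, 3.04 and 7.10 CPM and Ccl2 at 4.57, 7.74 and 3.86 CPM in PBS sham hearts. The differences between the cohorts were 10.22 for Cxcl1 (unadjusted p 0.000268), 6.18 for Icam1 (0.000146), 7.21 for Ccl2 (0.000394), 3.9 for Nfkbia (9.06e-05) and 2.17 for Hsp90aa1 (0.000373). Without PBS sham 3 they were 9.39, 5.61, 7.40, 3.51 and 2.23, each with an unadjusted p of at most 0.00159. These genes were picked for their values in TAC 2 and TAC 3, and the difference uses those same values. Its size rests on that pair, and its p-values are no separate support for a difference between cohorts. Of 26 inflammation genes 18, and of 19 early response genes 14, had an unadjusted p under 0.05 for a higher effect in floxed hearts, where the background is 9.53%. Without PBS sham 3 these were 15 and 14, with a background of 4.03%. Most of these members were far higher in TAC 2 and TAC 3 only, and the lists were chosen with earlier results known. The counts are therefore no separate support for a difference between cohorts. In TAC against sham, none of either list had an unadjusted p under 0.05 without TAC 2 and TAC 3. P4ha1 was 0.51 in floxed and −0.64 in PBS hearts, a difference of 1.17 (unadjusted p 0.000641), and 1.36 without PBS sham 3. Its level was 96.9, 137 and 70.5 CPM in PBS sham and 65.1, 55.4 and 74.9 CPM in PBS TAC hearts. The PBS log2 fold change was 0.02 for Sorl1, 0.30 for Adrb1 and 0.22 for Cd163, and 0.20, −0.10 and 0.05 without PBS sham 3. The hypertrophy and stretch list had a median of 0.61 in PBS hearts, 0.27 without PBS sham 3 and 0.59 in floxed hearts, and 1 of its 21 genes had an unadjusted p under 0.05 for the difference either way.

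**Figure D5:**
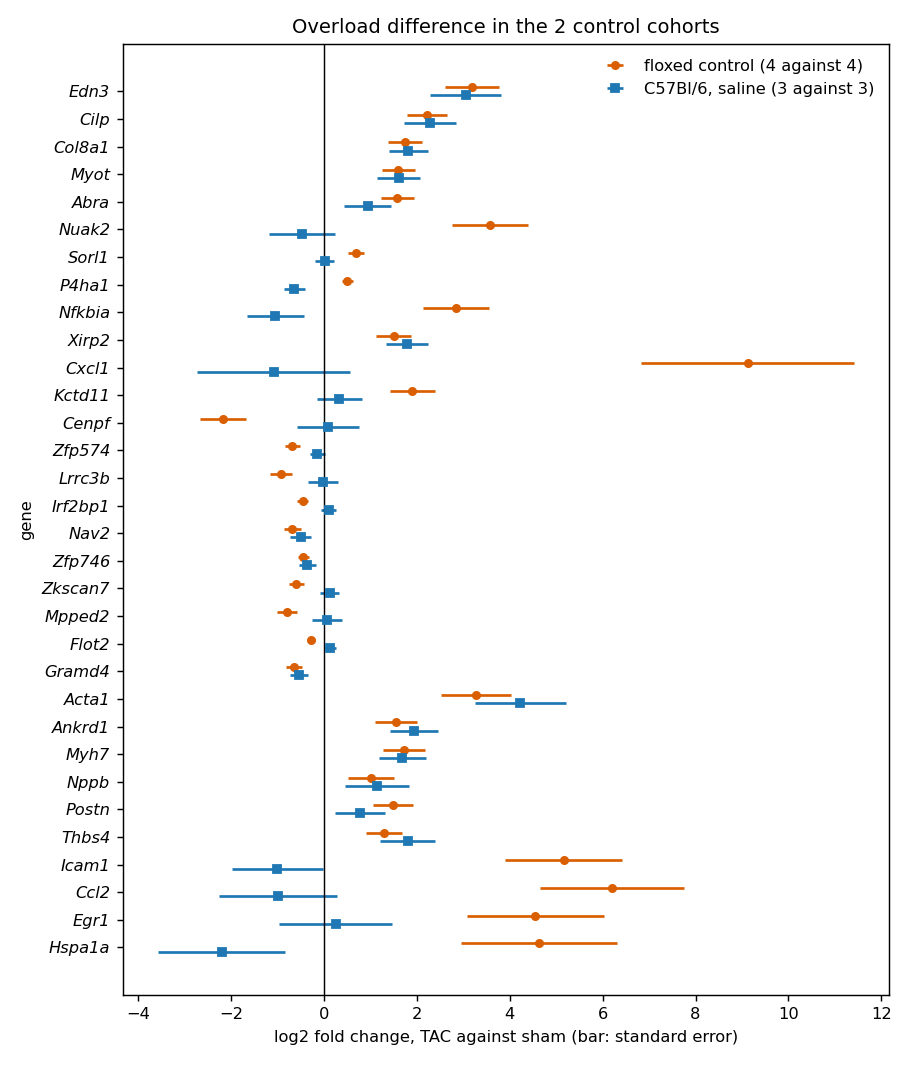
Log2 fold change of TAC against sham with its standard error for ranked genes described here and further named genes, in floxed hearts (4 against 4) and PBS-injected hearts (3 against 3). The points lie close together for Edn3, Cilp, Col8a1, Myot and Myh7 and far apart for Cxcl1, Icam1, Ccl2 and Nfkbia.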

How the data were processed

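Poly(A) RNA of 30 mouse hearts was sequenced paired-end from strand-specific libraries, per the labels' protocols, with an RNA integrity number above 7. The authors deposited 1 table of raw counts per gene and library. Per the submitters' processing notes, reads were handled with HISAT2 2.1.0 and featureCounts of Subread 1.5.1 on GRCm38; the annotation release and strand setting are not given in the sources used here. Of 55487 gene identifiers 55141 had a symbol in GENCODE M21, and the rest held 0.0192% of counts.

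Groups came from the titles and treatment labels. The 16 libraries of the floxed cohort were fitted together, with a mean for each group, in edgeR 4.0.16 (quasi-likelihood test, R 4.3.3, TMM, filterByExpr), and calls used a Benjamini-Hochberg adjusted p under 0.05 over all genes tested. The PBS fold changes and the difference between the cohorts came from fits over the whole series of 30 libraries. Those fits included the knockout and AAV9.Cpt1a hearts. Two-sided exact permutation tests served for 5 shares, with adjustment over the 5. The members, gene lists and tests were chosen with earlier results of these data known.

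Genes named are the 12 of smallest p in each direction whose mean reached 5 CPM in one group and whose libraries did not overlap, Cpt1a, preset key members of the lists and the 2 leading members of each list in each direction; the exceptions are stated, and a few genes that the rule names are not reported here. Gene symbols with antisense or same-strand overlap are listed as uncertain. Promoters are the 250 bases before RefSeq starts. On simulated counts of 15127 genes for this comparison the test called 79 of 100 genes changed 2-fold and 93 of 100 changed 4-fold, with 9 false calls. The simulated counts took their means and spread from the 4 sham hearts alone. Of 10608 genes, 78 had an SD of log2 CPM above 1 in sham hearts and 280 in TAC hearts. The simulation therefore does not give the sensitivity of the test for the real TAC hearts. Alternatives were DESeq2 1.42.0, limma 3.58.1 voom with sample weights, RLE size factors, other filters, a replicate block, covariates for haemoglobin and Myl7, other sets of libraries, and leaving out each library. Total counts of 16849335 to 18473879 in the 8 libraries set the precision of low genes. PCR copies are not independent molecules, so counts of 0 limit counting error only.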

Additional observations from a re-analysis of the deposited data

Results flagged for a closer look

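In 212 groups of 4 hearts, 1 heart stood far from the other 3 by Dixon's criterion in 14, and chance alone flags about 1 group in 20. Sham 3 had an Acta1 share of the actin counts of 10.9% (1.48% to 3.02% in the other sham hearts), Acta1 itself at 1189.5 CPM (134 to 269) and Nav2 at 55.5 CPM (62.6 to 64.1). Sham 2 had Nppa at 2443 CPM (14.4 to 283), Egr1 at 36.3 CPM (11.7 to 12.6) and Pck1, a gluconeogenic enzyme also made in fat, at 167 CPM (0.0611 to 1.17). Sham 2 is the heart with the highest summed atrial (5453 CPM) and adipocyte (179.7 CPM) markers, and their part in these values was not tested. Sham 4 had Edn3 at 0.555 CPM (1.96 to 2.16), and sham 1 had Casq2 at 945 CPM (824 to 833).

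TAC 1 had Lrrc3b at 20.3 CPM (11.2 to 12.3 in the other TAC hearts), Nppb at 149.9 CPM (518 to 564), Pfkfb1 at 20.0 CPM (4.04 to 6.58) and Mybpc2 at 31.1 CPM (56.3 to 61.3). In these 4 genes TAC 1 was the heart of its group nearest to the sham mean. TAC 2 had Hcn2 at 18.5 CPM (21.9 to 22.5), and TAC 3 had Hspa1a at 165 CPM (1.70 to 28.0).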

How the results depend on the processing

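The count of 0 called genes for TAC against sham stayed 0 with voom, RLE size factors, no filter, a mean of at least 5 CPM, mitochondrial and haemoglobin genes left out, a haemoglobin term, a Myl7 covariate, TAC 2 and TAC 3 left out, and only the 8 floxed control libraries. It was 175 with DESeq2 and 27 with all 30 libraries, and it ran from 0 to 27 over fits without 1 library (27 without TAC 1). A replicate block gave 0 calls and 1758 genes at an unadjusted p under 0.05 (1733 without the block). Same-numbered libraries did not deviate together (correlations −0.33, −0.18, 0.017 and 0.036), so the numbers were not taken to pair hearts. The difference from the PBS cohort, with 0 calls, had 136 with DESeq2, 3 with voom (Serpinh1, Manf and Chordc1), 1 with a mean of at least 5 CPM, 1 with the Myl7 covariate (both Chordc1), 2 without TAC 2 and TAC 3 (Cyp1a1 and Zbtb40), 0 with the block, and 0 to 240 over fits without 1 library.

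Directions turned as follows, on the log2 scale. Nppa was −1.42, but 0.79 with voom, 0.30 with the Myl7 covariate and −1.87 to 0.73 over fits without 1 library (0.73 without sham 2). Fos (5.43), Pgf (1.63) and Cldn5 (1.37) were −0.26, −0.0606 and −0.39 without TAC 2 and TAC 3. With a haemoglobin term Fos was −0.65, Cldn5 −0.0893, Hspa1a −0.15 (4.64) and Col3a1 0.25 (−0.13), and with that term over the 8 libraries alone, an alternative chosen after seeing the data, Fos was −0.28, Pgf −0.0585 and Cldn5 −0.39. Col1a1 (0.02) was −0.0153 with the Myl7 covariate and −0.0756 to 0.115 without 1 library, Pdk4 (−0.36) was −0.69 to 0.12 without 1 library (0.12 without sham 4), and Ryr2 (−0.21) was 0.00235 without TAC 2 and TAC 3. In percentage points, the Cpt1a share (−0.659) was 0.724 without TAC 2 and TAC 3, −3.26 to 2.86 without 1 library and 0.00718 as a log2 ratio, and the Slc2a1 share of Slc2a1 and Slc2a4 counts (0.394) was −0.423 without TAC 2 and TAC 3. The causes were not tested.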

Other observations

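Several genes outside the lists, chosen after their values were seen, followed the graded order of the hearts. Nlrc3, a NOD-like receptor known as a brake on T cell and innate signalling, was at 2.75, 2.13, 5.64 and 1.85 CPM in sham 1 to 4 and at 3.95, 22.3, 20.6 and 17.0 CPM in TAC 1 to 4. TAC 1 was inside the sham range and the other 3 TAC hearts were above it, with a log2 fold change of 2.36 (SE 0.55, unadjusted p 0.000577) and 2.03 in PBS-injected hearts. Scx, a tendon and matrix transcription factor, was at 4.42 to 10.2 CPM in sham and at 5.59, 17.9, 15.6 and 14.8 CPM in TAC hearts. Nlrc3 and Scx had log2 differences of 1.77 and 0.45 without TAC 2 and TAC 3.

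Among lower genes, 9 were at least 2-fold below the sham mean in all 4 TAC hearts. Wif1 and Smoc1 were picked from them after their values were seen. Whether secreted regulators are frequent among the 9 was not tested. Wif1, a secreted inhibitor of Wnt ligands, was at 3.79, 9.87, 2.79 and 11.2 CPM in sham and at 1.43, 2.71, 1.59 and 2.16 CPM in TAC hearts. Smoc1, a secreted modulator of BMP signalling, was at 8.49, 12.7, 5.01 and 3.51 CPM in sham and at 2.36, 1.69, 0.92 and 2.60 CPM in TAC hearts. Neither gene's groups overlapped, with log2 fold changes of −1.81 (SE 0.68, unadjusted p 0.0175) and −1.97 (SE 0.56, unadjusted p 0.00297), and −1.94 and −1.58 without TAC 2 and TAC 3. Selp, the adhesion molecule P-selectin, was among 4 genes at least 2-fold above the sham mean in all 4 TAC hearts, but at 0.822 and 1.38 CPM in TAC 1 and TAC 4 against 22.9 and 16.6 CPM in TAC 2 and TAC 3. Its sham values were low, at 0.0611, 1.04, 0.569 and 0.185 CPM in sham 1 to 4, and TAC 1 was inside their range. Its log2 fold change was 4.43 in floxed and −1.08 in PBS-injected hearts (unadjusted p of the difference 0.00228), and −0.26 there without PBS sham 3 (0.0226). None of these genes had an adjusted p under 0.05 in edgeR.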
